A study of Mus musculus with 9 samples.

Results

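The intermediate filament genes of astrocytes and the genes of the linkers that tie these filaments to the rest of the cell were followed in ribosome-bound mRNAs of mouse brain. The group was chosen by name and holds 6 genes of the 22092 in the tables: Gfap, Vim, Nes and Synm, which encode filament proteins, and Plec and Dst, which encode linkers. All 6 passed the filter on low counts. In whole astrocyte TRAP, GFP-tagged ribosomes were immunoprecipitated from whole brain (3 libraries, 1 brain each), and in endfeet TRAP from purified brain vessels that keep the attached astrocyte endfeet (6 libraries, each from the pooled vessels of 8 mice). All mice were 2 months old, of the strain Aldh1L1 JD130, and carried the transgene tg:Aldh1L1-L10aGFP, in which the ribosomal protein L10a fused to GFP is made in cells that use the Aldh1l1 promoter. No group lacked the transgene, so binding of untagged RNA was not measured in these libraries. Endfeet 1 to 6 and whole astrocyte 1 to 3 denote the libraries by the numbers in their labels.

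Intermediate filaments are rope-like polymers that give a cell its tensile strength. In mature astrocytes they are built mainly of glial fibrillary acidic protein (GFAP) and vimentin. Nestin and synemin can join such filaments as copolymers. Nestin is best known from neural progenitors, and vimentin and nestin are also made by vessel cells. Plectin and dystonin belong to the plakins, large proteins that bind filaments to actin, microtubules and adhesion sites at the cell surface.

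Sequences are shown for Dst, whose transcripts differ in the exons they carry, since the files count each annotated transcript on its own. They come from the GENCODE M21 transcripts of GRCm38 (mm10) and run from 5′ to 3′. Dst-203 carries 5 consecutive exons on chromosome 1, from 34187972 to 34196061 on the plus strand, that Dst-202 skips. They hold 6042 nt, of which a single exon makes up 5292 nt, and are 25.95% of the length of Dst-203. By these exons, Dst-203 corresponds to the long form of dystonin known from muscle, and Dst-202 to the form known from neurons. The lines give the 45 bases on each side of the junctions into and out of these exons and of the junction that skips them, with the bases of the exons in capitals.
Dst-203 entry: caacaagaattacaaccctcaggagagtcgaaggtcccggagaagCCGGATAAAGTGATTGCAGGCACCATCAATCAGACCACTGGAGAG
Dst-203 exit: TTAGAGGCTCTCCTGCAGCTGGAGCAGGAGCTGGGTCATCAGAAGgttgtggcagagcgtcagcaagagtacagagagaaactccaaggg
Dst-202: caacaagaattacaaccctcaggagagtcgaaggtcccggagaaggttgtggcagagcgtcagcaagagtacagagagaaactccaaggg

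The libraries differed in depth and in the other cells they held. Gene totals were 35984144 to 43521208 counts in whole astrocyte libraries and 2319495 to 13450588 in endfeet libraries, and endfeet 6 was the shallowest. Endfeet libraries varied far more among themselves, with a common dispersion of 0.725 against 0.0141. The 12 astrocyte markers were read in both groups, with a summed level of 35577 to 39234 CPM (counts scaled to a common library size, after TMM correction) in whole astrocyte libraries and 11626 to 31521 CPM in endfeet libraries. Markers of vessel cells were read almost entirely in endfeet libraries. The 10 endothelial markers summed to 7.53 to 9.41 CPM in whole astrocyte libraries and 2636 to 5553 CPM in endfeet libraries, the 10 mural markers to 37.5 to 39.8 and 2931 to 7954 CPM, and the 8 fibroblast markers to 92.9 to 158 and 2582 to 6083 CPM. The 6 choroid plexus markers summed to 73.0 to 1597 CPM and 6737 to 73135 CPM. The study's methods give removal of the choroid plexus for the whole brains, and do not mention it for the purified vessels. Microglia and macrophage markers (19.6 to 23.6 and 173 to 353 CPM) and ependymal markers (30.04 to 42.4 and 45.7 to 190 CPM) also summed higher in endfeet libraries, and oligodendrocyte markers (653 to 680 and 241 to 527 CPM) lower. In such bulk samples, fewer cells of a type and less RNA per cell cannot be told apart.

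The question was which filament and linker mRNAs differ in level between ribosomes of the perivascular endfeet and those of the whole astrocyte. Vim, Nes, Synm, Plec and Dst were higher in endfeet TRAP, by 5.46-fold to 107-fold, whereas the difference of Gfap did not pass the test. Thus 5 of the 6 genes were higher, where 20.7% of the 14427 genes tested were higher and 13.9% were lower (edgeR quasi-likelihood test, Benjamini-Hochberg adjusted p of at most 0.05). In these 5 genes each of the 6 endfeet libraries lay above all 3 whole astrocyte libraries, as was the case for 18.9% of all genes tested, while 23.8% of all genes lay wholly below. The median log2 fold change was 4.55 over the 6 genes and 0.10 over all genes tested. File numbers put endfeet 4 to 6 in the same series as all whole astrocyte libraries, with no meaning given for the series. Against these 3 endfeet libraries alone the log2 fold changes were 2.22 for Vim, 6.78 for Nes, 4.23 for Synm, 4.91 for Plec and 4.37 for Dst, each past the threshold in edgeR, and -0.76 for Gfap, which was not (adjusted p = 0.27).

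Gfap (ENSMUSG00000020932; chromosome 11, 102887336 to 102900912, minus strand) encodes the filament protein that defines astrocytes in most stainings. It stood at 1207, 1307 and 1323 CPM in whole astrocyte libraries 1 to 3, and from 252 CPM in endfeet 6 through a median of 857 CPM to 1419 CPM in endfeet 1. The groups overlapped, with 1 endfeet library above all whole astrocyte libraries and 4 below them. The means were 889 ± 422 CPM (SD, n = 6) and 1279 ± 62.7 CPM (SD, n = 3), a log2 difference of -0.53 ± 0.40 (SE) with an edgeR adjusted p of 0.33. A fit that let each group have its own spread (limma voom) placed Gfap lower, at -0.61 with an adjusted p of 0.022, while over the other alternatives the adjusted p was 0.18 to 0.51. The values of Gfap lay 5.63-fold apart among endfeet libraries. Of the 12 astrocyte markers, 6 were lower in endfeet TRAP, 1 (Aqp4, the water channel of the endfoot membrane) was higher and 5 did not pass the test, with a median log2 fold change of -1.15.

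Vim (ENSMUSG00000026728; chromosome 2, 13573927 to 13582826, plus strand) encodes vimentin. Its level was 127, 122 and 123 CPM in whole astrocyte libraries and 463 CPM (endfeet 6) to 878 CPM (endfeet 5), with a median of 698 CPM, in endfeet libraries. No endfeet library came near the whole astrocyte values. The means of 676 ± 149 CPM and 124 ± 2.45 CPM differed by 2.45 ± 0.28 on the log2 scale, or 5.46-fold (adjusted p = 2.5e-05, edgeR).

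Nes (ENSMUSG00000004891; chromosome 3, 87971078 to 87980451, plus strand) encodes nestin, a filament protein that does not form filaments alone. It was scarcely read in whole astrocyte libraries, with 42, 47 and 71 counts, or 1.14, 1.24 and 1.56 CPM. Endfeet libraries held 149 to 2607 counts, or 28.0 CPM at the lowest, 166 CPM at the median and 176 CPM at the highest. The lowest of them, endfeet 1, stood apart from the other 5 but still far above the whole astrocyte libraries. The difference was 6.75 ± 0.66 on the log2 scale, or 107-fold (means 142 ± 57.5 and 1.31 ± 0.220 CPM, adjusted p = 7.2e-06, edgeR). Endfeet 1 also had the lowest summed endothelial (2636 CPM) and mural (2931 CPM) markers of the endfeet libraries and the highest choroid plexus sum (73135 CPM). The part of these cells in the Nes level was not tested.

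Synm (ENSMUSG00000030554; chromosome 7, 67730160 to 67759742, minus strand) encodes synemin, which joins filaments of vimentin or desmin and binds to linker proteins. Whole astrocyte libraries stood at 7.24, 7.73 and 7.86 CPM. Endfeet libraries ran from 86.8 CPM (endfeet 6) through a median of 191 CPM to 244 CPM (endfeet 1). The lowest and highest of the 6 were thus not those of Nes. The log2 difference was 4.58 ± 0.43, or 23.9-fold (means 182 ± 61.6 and 7.61 ± 0.323 CPM, adjusted p = 4.6e-06, edgeR).

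Both linkers were also higher in endfeet TRAP. Plec (ENSMUSG00000022565; chromosome 15, 76170974 to 76232574, minus strand) encodes plectin, the linker that binds filaments to hemidesmosomes, focal adhesions and actin. It was read at 6.84, 5.69 and 7.07 CPM in whole astrocyte libraries and from 190 CPM (endfeet 2) through a median of 209 CPM to 291 CPM (endfeet 3) in endfeet libraries. This was the narrowest relative spread among endfeet libraries in the group of 6 genes, 1.53-fold from lowest to highest. The log2 difference was 5.07 ± 0.33, or 33.6-fold (means 220 ± 38.1 and 6.53 ± 0.738 CPM, adjusted p = 2.7e-07, edgeR).

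Dst (ENSMUSG00000026131; chromosome 1, 33908225 to 34308661, plus strand) encodes dystonin, a plakin made in forms that bind actin, microtubules or filaments. Whole astrocyte libraries had 32.7, 26.9 and 31.2 CPM. Endfeet libraries had 432 CPM (endfeet 5) to 852 CPM (endfeet 2), with a median of 746 CPM. Again no library crossed to the other group. The log2 difference was 4.53 ± 0.33, or 23.03-fold (means 698 ± 162 and 30.3 ± 2.999 CPM, adjusted p = 6.7e-07, edgeR). Endothelial, mural and fibroblast markers moved in the same direction as the 5 genes that were higher, since 10 of 10, 10 of 10 and 7 of 8 of them were higher, with median log2 fold changes of 9.55, 6.48 and 5.23. Ly6c1, an endothelial surface protein, was the only gene of these lists with no count in any whole astrocyte library. The part of vessel cell RNA in the levels of the 5 genes was not tested.

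**Figure D1:**
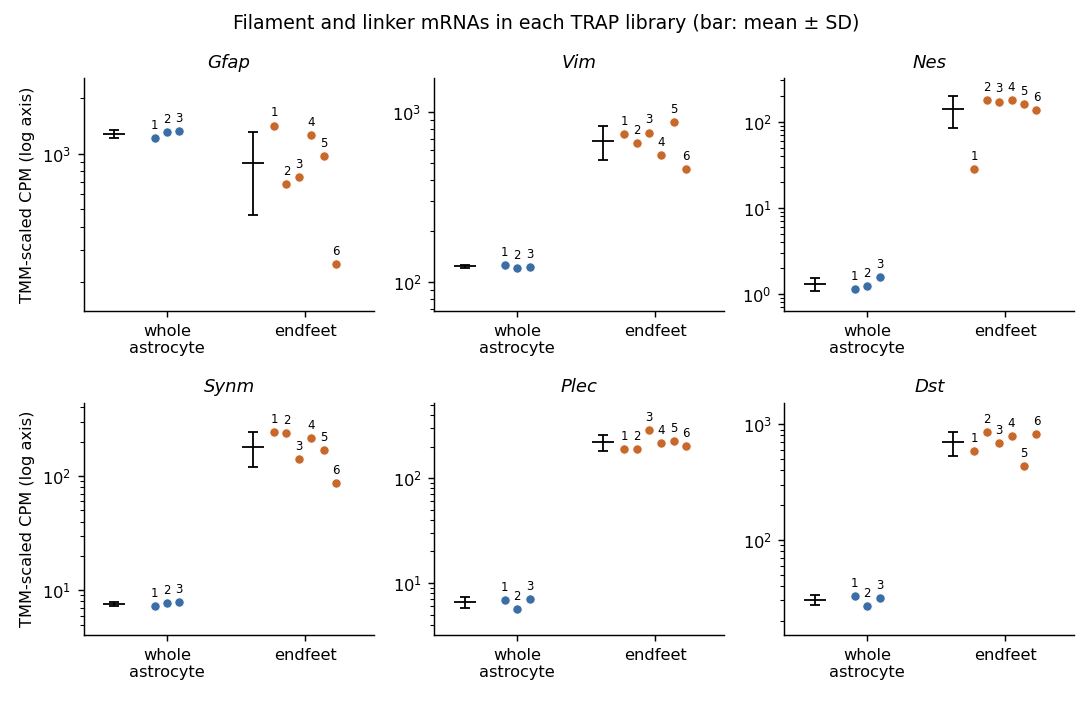
TMM-scaled CPM (log axis) of the 6 genes in each library, with whole astrocyte libraries 1 to 3 in blue, endfeet libraries 1 to 6 in orange, and a black bar for the mean ± SD of each group. For Vim, Nes, Synm, Plec and Dst all 6 endfeet libraries lie above all 3 whole astrocyte libraries, whereas Gfap overlaps, from 252 to 1419 CPM in endfeet libraries against 1207 to 1323 CPM.

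Levels of different genes were compared after division by the length of the transcript that stands for each gene, as CPM per kb. In whole astrocyte libraries the order was Gfap (483 ± 23.7 CPM per kb), Vim (56.5 ± 1.12), Dst (1.30 ± 0.129), Synm (0.973 ± 0.0413), Plec (0.435 ± 0.0492) and Nes (0.214 ± 0.0359). All 3 libraries gave this order, and neighbours in it did not overlap. In endfeet libraries the mean level was 336 ± 160 CPM per kb for Gfap and 308 ± 67.9 for Vim. These neighbours did not differ beyond their spread, and Vim stood above Gfap in 4 of the 6 libraries. Dst (29.97 ± 6.97 CPM per kb), Synm (23.2 ± 7.88), Nes (23.1 ± 9.39) and Plec (14.6 ± 2.54) followed with overlapping ranges. The 6 endfeet libraries gave 5 different orders, and Nes was the lowest of the 6 genes only in endfeet 1.

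The makeup of the filament mRNAs was read from the same levels as the share of each of the 4 filament genes in their sum per kb. In whole astrocyte libraries Gfap made up 89.3 ± 0.654% and Vim 10.47 ± 0.657%, while Synm (0.180%) and Nes (0.0395%) were traces. In endfeet libraries Gfap made up 46.0 ± 12.1%, from 28.0% in endfeet 6 to 60.5% in endfeet 4. Vim made up 46.8 ± 10.6%, from 32.4% to 62.1%. Nes reached 3.796 ± 1.996% and Synm 3.40 ± 0.834%, with ranges of 0.502% (endfeet 1) to 6.60% for Nes and 2.65 to 4.93% for Synm. The share of Gfap in every endfeet library was lower than in every whole astrocyte library.

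**Figure D2:**
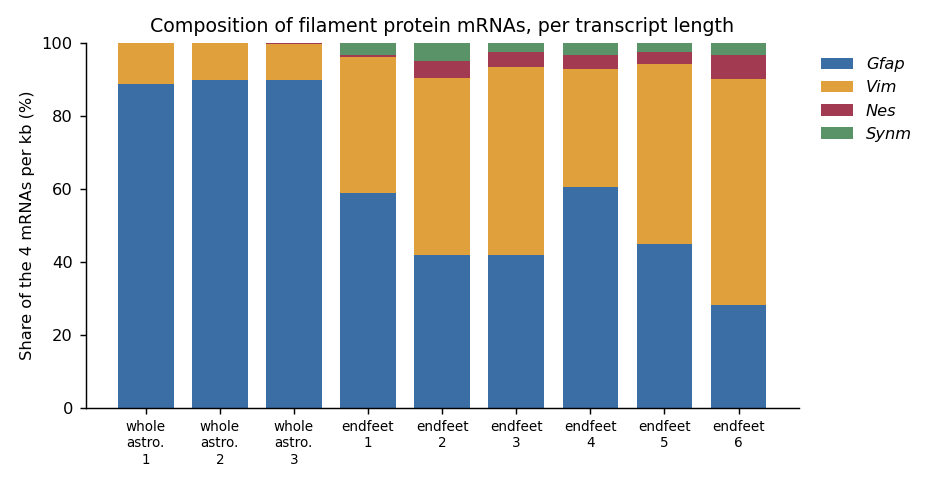
Share of Gfap, Vim, Nes and Synm in their summed CPM per kb (%, stacked bars) in each of the 3 whole astrocyte and 6 endfeet libraries. Gfap takes 88.6 to 89.7% of each whole astrocyte bar and 28.0 to 60.5% of each endfeet bar, with Vim filling most of the rest.

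Ratios of counts within a library need no scaling between libraries. In whole astrocyte libraries there were 9.52, 10.7 and 10.8 Gfap counts for each Vim count, and in endfeet libraries 0.545 (endfeet 6) to 2.25 (endfeet 4). The Vim to Gfap ratio was thus 8.76-fold higher in endfeet TRAP (log2 difference 3.13). For each Nes count there were 843 to 1051 Gfap counts in whole astrocyte libraries and 1.83 (endfeet 6) to 50.6 (endfeet 1) in endfeet libraries, a difference of 7.25 on the log2 scale. Ratios to Gfap differed by 5.21 for Synm, 5.77 for Plec and 5.21 for Dst on the log2 scale, and the ratio of Nes to Vim by 4.12. For each of these 6 ratios all 6 endfeet libraries lay above all 3 whole astrocyte libraries. Each gave p = 0.0119 in a two-sided exact permutation test over 84 splits, the smallest p this design allows, and an adjusted p of 0.0139 over the 7 ratios tested. Nes therefore differed more than Vim between the groups within the same libraries. The ratio of the linkers to each other moved least. There were 4.41 to 4.78 Dst counts for each Plec count in whole astrocyte libraries and 1.91 to 4.47 in endfeet libraries, a log2 difference of 0.57 for Plec over Dst with an exact permutation p and adjusted p of 0.0833 (higher in 5 of 6 endfeet libraries than in any whole astrocyte library). With counts summed over all transcripts of each gene this log2 difference was 0.67, with an adjusted p of 0.0476 by the same exact permutation test, against 0.0536 to 0.167 over the other alternatives.

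**Figure D3:**
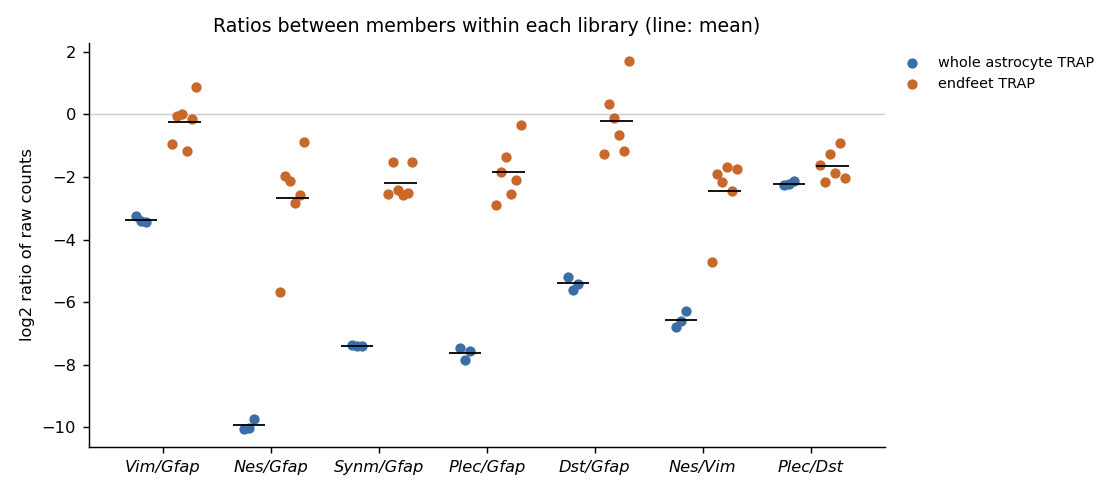
Log2 ratio of raw counts between pairs of the 6 genes in each library, whole astrocyte TRAP in blue and endfeet TRAP in orange, with a line for each group mean. The groups are separate for the 6 ratios to Gfap or Vim, and for Plec over Dst, with a log2 difference of 0.57, they overlap.

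The 6 genes have 48 annotated transcripts, and 29 transcripts other than those that stand for the genes had at least 20 counts in every library. The share of each in the count of the main transcript was compared between the groups, with the limit that overlapping transcripts repeat the same reads. None of the 29 passed after adjustment over them (exact permutation test, smallest adjusted p 0.0690), and 19 had an unadjusted p under 0.05, of which 17 were lower in endfeet TRAP. Of these 17, 13 were transcripts of Plec, most of which repeat the same reads, so the directions are not independent. Since the smallest p of the design is 0.0119, no transcript could pass alone.

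Gfap-201 encodes the main form of GFAP, and Gfap-202 the form known as GFAP-delta, which has another end. Gfap-202 was read at 37.1%, 36.2% and 36.6% of the Gfap-201 count in whole astrocyte libraries. In endfeet libraries it ran from 22.5% (endfeet 2) to 39.4% (endfeet 1), and 5 of the 6 were below all whole astrocyte libraries. The 2 transcripts share 1176 nt, while Gfap-201 has 1472 nt and Gfap-202 has 1424 nt of their own. Reads on the shared part count for both, so these percentages are not the share of GFAP-delta. Counts on the parts of their own were not separated. The log2 difference of -0.45 did not pass (exact permutation p = 0.0952, adjusted p = 0.11). Vim-204, a transcript that keeps an intron, stood at 10.2%, 10.4% and 14.2% of the Vim-201 count in whole astrocyte libraries and at 2.76 to 8.49% in endfeet libraries (exact permutation p = 0.0238, adjusted p = 0.0690). The groups did not overlap for this transcript. It shares 846 nt with Vim-201 and has 80 nt of its own, so most of its length cannot tell it from Vim-201. Reads of the intron were not counted apart.

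The share of Dst reads that fell in the 5 exons differed between the groups. The share of Dst-203 counts that Dst-202 did not have, which come from the 5 exons apart from 129 nt elsewhere in Dst-203 and less any counts on 104 nt of Dst-202 alone, was 2.81%, 2.26% and 1.48% in whole astrocyte libraries. In endfeet libraries 1 to 6 it was 20.8%, 20.3%, 21.9%, 19.6%, 17.3% and 19.8%. In counts, these differences between the transcripts were 34, 23 and 21 in whole astrocyte libraries and 357 to 2319 in endfeet libraries. Per kb of the 6171 nt that Dst-202 lacks, these differences were 4.18 to 8.06% of the density of counts on Dst-202 in whole astrocyte libraries. In endfeet libraries they were 58.2 to 78.4%. Nearly all whole astrocyte reads of Dst thus lay outside the exons shown in capitals, and the groups were far apart. The share was chosen for description after the counts were seen and has no test of its own. The ratio of Dst-202 to Dst-203 that was tested had a log2 difference of -0.29, with all 6 endfeet libraries below all whole astrocyte libraries (exact permutation p = 0.0119, adjusted p = 0.0690). Dst-202 taken alone, without the 5 exons, was read at 557 ± 127 CPM in endfeet libraries and 29.6 ± 2.90 CPM in whole astrocyte libraries. The part of muscle-like mural cells, whose markers moved with the group, in the exon difference was not tested.

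**Figure D4:**
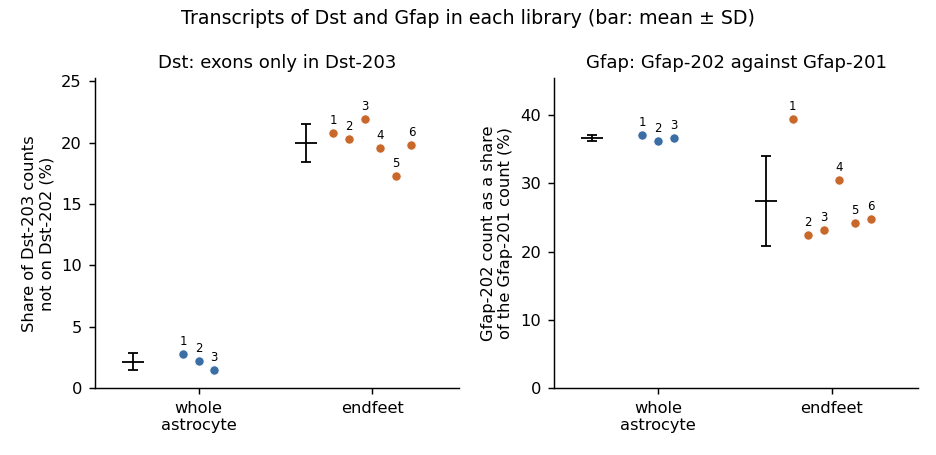
Left, share of Dst-203 counts not on Dst-202 (%) and right, Gfap-202 count as a share of the Gfap-201 count (%), in each whole astrocyte (blue) and endfeet (orange) library, with bars for the mean ± SD. The Dst share is 1.48 to 2.81% in whole astrocyte libraries and 17.3 to 21.9% in endfeet libraries, whereas the Gfap share overlaps through endfeet 1 at 39.4%.

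Among the other transcripts of Dst, Dst-213, which corresponds to the epithelial form, stood at 26.2 to 30.6% of the Dst-203 count in whole astrocyte libraries and 21.2 to 29.3% in endfeet libraries (exact permutation p = 0.179, adjusted p = 0.199). Dst-210, which shares 396 of its 1221 nt with Dst-203, stood at 4.87 to 6.88% in whole astrocyte and 0.638 to 2.35% in endfeet libraries. Its log2 difference of -1.81 was the largest of the 29 transcripts (exact permutation p = 0.0119, adjusted p = 0.0690). Dst-211 (-0.0213, exact permutation p = 0.0119, adjusted p = 0.0690) and Dst-201 (0.0541, exact permutation p = 0.0476, adjusted p = 0.0727) differed by little. Of Plec, 17 transcripts were compared, and 13 had an unadjusted p under 0.05. The long ones among them hold the same 14714 nt as Plec-201 and differed by -0.0423 at most on the log2 scale. The short Plec-213 and Plec-214 were also among the 13, with log2 differences of -1.05 and -1.01 (each exact permutation p = 0.0476, adjusted p = 0.0727). Plec-222, another short transcript, stood at 11.1, 19.1 and 16.8% of the Plec-201 count in whole astrocyte libraries and 5.77 to 17.6% in endfeet libraries (log2 difference -0.85, exact permutation p = 0.0714, adjusted p = 0.0986).

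To describe each pattern over the 9 libraries, the genes closest to it were taken by the mean absolute difference in log2(CPM + 1), after each gene was centred on its mean. For Gfap these were Pfkfb2 (0.12), Naa60 (0.13) and Vmac (0.18), and for Vim they were Adam10 (0.16), Ubr4 (0.17) and B2m (0.17). Nes had no neighbour as close, with Tgfbr2 at 0.25, Atp13a5 at 0.28 and Jcad at 0.29. Synm was closest to Gcnt2 (0.16), Ptpn14 (0.21) and Lpar1 (0.22). Plec was closest to Slc2a1 (0.16), Afap1l1 (0.17) and Slc7a1 (0.18). Dst was closest to Macf1 (0.16), which encodes the other large plakin linker of actin and microtubules, then to Slc7a1 (0.19) and Tmtc1 (0.21). Slc7a1 was near to both linkers, and among the 6 genes themselves the closest pair was Plec and Dst (0.34), followed by Synm and Dst (0.39).

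Lists of related genes were read from the same fit. Of 48 listed genes 40 were tested, of which 15 were higher and 3 lower in endfeet TRAP, where 20.7% of all genes tested were higher and 13.9% lower. Of 14 tested genes of other intermediate filament proteins, 2 were higher, 1 was lower and 11 did not pass, with a median log2 fold change of -0.06, so that the shares in both directions lay below those of all genes. Des, which encodes desmin, the filament protein of muscle cells and pericytes, was higher by 4.44 ± 1.16 on the log2 scale (0.794 to 1.32 CPM in whole astrocyte and 1.69 to 71.6 CPM in endfeet libraries, adjusted p = 0.0099, edgeR). The call for Des was lost without whole astrocyte 2 (4.29, adjusted p = 0.053, edgeR) or whole astrocyte 3 (4.33, adjusted p = 0.052, edgeR). Its log2 fold change was 3.17 against endfeet 4 to 6 alone, 3.29 with the file number series as a covariate, 3.61 without endfeet 2 and 3.84 with limma voom, each past the threshold. With the series as a covariate the difference again comes from endfeet 4 to 6, since every whole astrocyte library is of their series. That fit is thus no separate check from endfeet 4 to 6 alone. Lmna, of the nuclear lamina, was higher by 1.58 ± 0.53 (adjusted p = 0.035, edgeR), but by 0.41 with an edgeR adjusted p of 0.71 when its longest transcript was counted, and its call was lost in 10 of 20 alternatives. Nefl, the light neurofilament protein of neurons, was lower by 1.44 ± 0.42 on the log2 scale (log2 fold change -1.44, adjusted p = 0.018, edgeR), and the 7 neuron markers summed to 3430 to 3936 CPM in whole astrocyte and 925 to 1829 CPM in endfeet libraries. Its call was lost without whole astrocyte 1 (adjusted p = 0.075) or whole astrocyte 2 (adjusted p = 0.066), and with the series as a covariate (-1.32, adjusted p = 0.076), in edgeR.

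Of the 7 tested genes of other plakins and desmosomal linkers, 4 were higher and 3 did not pass, with a median of 2.26, where 20.7% of all genes tested were higher. Macf1 rose from 60.3 ± 6.62 CPM in whole astrocyte to 1596 ± 275 CPM in endfeet libraries, a log2 fold change of 4.73 ± 0.30 (adjusted p = 2.6e-07, edgeR) next to 4.53 for Dst. Pkp4, an armadillo protein of cell junctions, was higher by 2.26 ± 0.33 (adjusted p = 1.6e-04, edgeR). Dsp, which encodes desmoplakin, the plakin of desmosomes, was higher by 4.497 ± 0.81 (1.59 ± 0.454 and 35.9 ± 26.3 CPM, adjusted p = 8.6e-04, edgeR). Against endfeet 4 to 6 alone the log2 fold change of Dsp was 3.59, past the threshold. With the series as a covariate, a fit that takes this difference from the same libraries, it was 3.72 and also passed. Ppl, which encodes periplakin, was higher by 7.01 ± 1.05 (at most 14 counts in a whole astrocyte library and 80 to 411 in endfeet libraries, adjusted p = 2.2e-04, edgeR). The lowest whole astrocyte value of Ppl, 0.0439 CPM, was under the floor of 3 counts, and its fold is uncertain, with a log2 fold change of 7.76 without whole astrocyte 2 and 8.955 with libraries thinned to the smallest total.

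Of 12 anchoring partners, the membrane and adhesion proteins to which plectin, dystonin or synemin can bind and their neighbours, 7 were higher, 1 was lower and 4 did not pass, with a median of 1.94. Over all genes tested, 20.7% were higher and 13.9% lower. Both chains of the hemidesmosome integrin that plectin binds were higher, Itga6 by 3.60 ± 0.41 (adjusted p = 2.5e-05, edgeR) and Itgb4 by 3.35 ± 0.91 (adjusted p = 0.012, edgeR). Without any 1 of the whole astrocyte libraries the Itgb4 call was lost, with adjusted p of 0.063 to 0.069 in edgeR. Cd151, the tetraspanin that pairs with this integrin, was higher by 1.53 ± 0.37 (adjusted p = 0.0064, edgeR). Col17a1, the collagen of hemidesmosomes, had at most 7 counts in a whole astrocyte library and 0 to 139 in endfeet libraries (adjusted p = 0.036, edgeR), and this call was lost without any 1 of 6 libraries, whole astrocyte 1 to 3 and endfeet 2, 3 and 5 (adjusted p of 0.052 to 0.128), with the series as a covariate (0.073) and with counts summed over transcripts (0.055).

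Other genes of this list encode proteins of the dystrophin complex, which in endfeet ties the membrane to the vascular basement membrane. Endothelial and mural markers were also higher in endfeet TRAP, 10 of 10 in each list. The part of vessel cell RNA in the levels of the anchoring partners and other related genes was not tested. Dag1, which encodes dystroglycan, was higher by 2.35 ± 0.29 (adjusted p = 4.6e-05, edgeR) and Utrn, which encodes the dystrophin relative utrophin, by 5.15 ± 0.33 (adjusted p = 2.7e-07, edgeR). Dtna, which encodes alpha-dystrobrevin, fell from 960 ± 58.8 CPM to 278 ± 144 CPM (log2 fold change -1.79 ± 0.35, adjusted p = 0.0016, edgeR). Dmd, which encodes dystrophin, stood at 477 ± 60.3 and 383 ± 125 CPM and did not pass (-0.31 ± 0.30, adjusted p = 0.45, edgeR). Tln1, which encodes talin, the integrin adaptor of focal adhesions, was higher by 3.05 ± 0.55 (adjusted p = 8.7e-04, edgeR). Against endfeet 4 to 6 alone the log2 fold change of Tln1 was 2.29, past the threshold. With the series as a covariate, a fit that takes this difference from the same libraries, it was 2.42 and also passed.

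Of 7 chaperones and modifiers of filaments, 2 were higher, 1 was lower and 4 did not pass, with a median of 0.46. Among all genes tested 20.7% were higher and 13.9% lower, and with 7 genes these counts do not set the list apart. Cryab, the small heat shock protein alpha B-crystallin that binds GFAP and vimentin filaments, fell from 347 ± 17.7 to 94.9 ± 23.5 CPM (log2 fold change -1.87 ± 0.26, adjusted p = 1.2e-04, edgeR), and all 6 endfeet libraries lay below all whole astrocyte libraries. Rock1, a kinase that phosphorylates filament proteins, was higher by 1.46 ± 0.31 (adjusted p = 0.0027, edgeR). Hspb1, another small heat shock protein, passed the test at counts of at most 2 in whole astrocyte and 1 to 23 in endfeet libraries (adjusted p = 0.0095, edgeR), and not without whole astrocyte 1 (0.082) or 3 (0.090), so no fold is given for it.

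**Figure D5:**
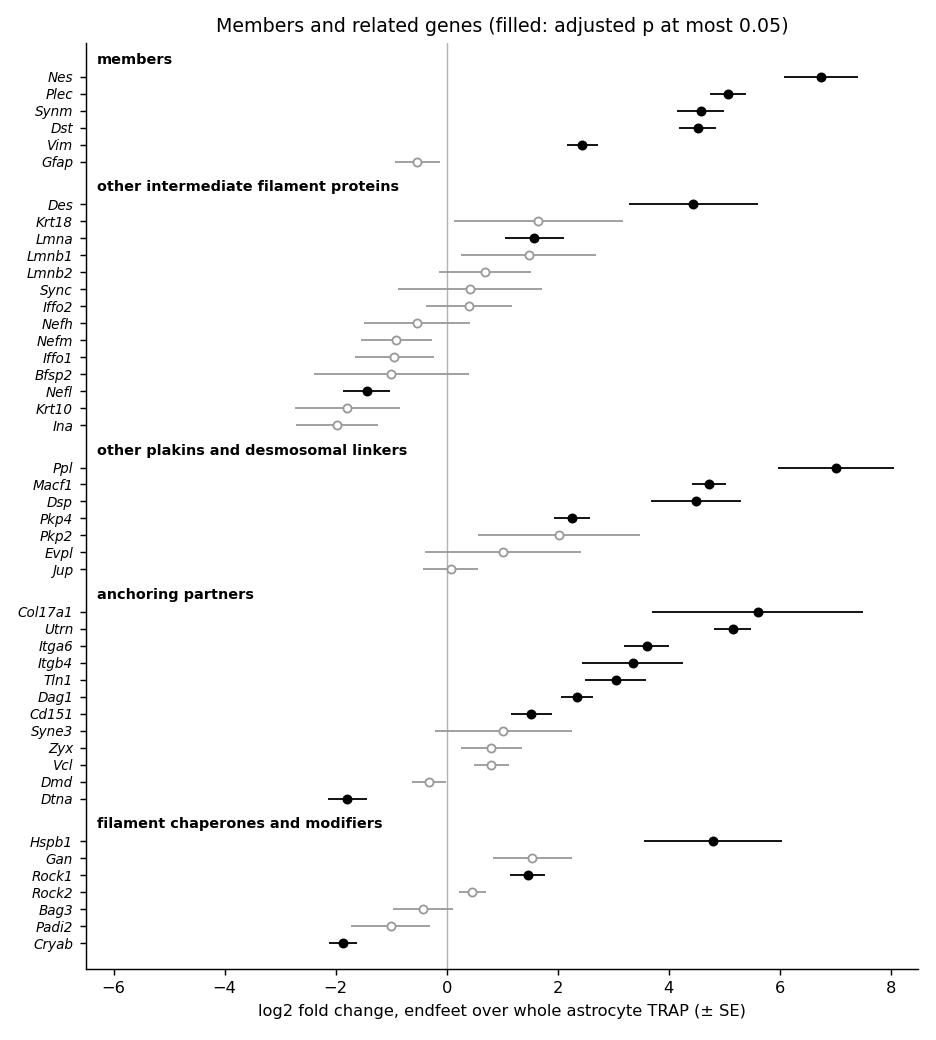
Log2 fold change ± SE (endfeet over whole astrocyte TRAP) of the 6 genes and of the 40 tested related genes, grouped by list, with filled black points for an edgeR adjusted p of at most 0.05. Of the 6 genes only Gfap lies left of 0, while the lists spread on both sides, from -1.98 to 7.01.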

How the data were processed

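The authors aligned 50 bp reads to mm10 with Bowtie, discarded reads with several alignments and counted overlaps with Ensembl 75 annotation by HTSeq 0.5.3, and the RNA had been amplified with the Ovation RNA-Seq system. The strand setting is not given in the sources used here. The study's methods speak of counts per gene, but the deposited values are raw counts per transcript, neither normalized nor pooled. Of 75466 transcripts 73164 matched GENCODE M21 (22092 genes), and 2302 were left out. Each gene was read from the transcript whose CPM, added up over libraries, was highest. Total counts per library are given with the results, and 3 counts, the floor at these depths, were 0.0689 to 0.0834 CPM in whole astrocyte and 0.223 to 1.29 CPM in endfeet libraries.

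The test between groups was edgeR 4.0.16 (TMM, filterByExpr, quasi-likelihood test) in R 4.3.3, with Benjamini-Hochberg adjustment over 14427 genes and a threshold of 0.05. The SE was derived from the log2 fold change and the square root of F. Ratios between genes or transcripts, with 0.5 added to each count, were compared by two-sided exact permutation tests over 84 splits. Alternatives were DESeq2 1.42.0, limma 3.58.1 and other filters, scalings, transcripts and libraries. The genes, lists and tests were chosen with earlier results of these data known. Named are the 6 genes, list genes past the threshold, Dmd (chosen after its values were seen), markers, and the 3 genes closest to each member. Eppk1, of the plakin list, was not analysed here.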

Additional observations from a re-analysis of the deposited data

Results flagged for a closer look

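In 61 groups of endfeet values examined, 9 had a library whose gap to the nearest other was large for the range of the group (Dixon's test at its 95% critical value). Chance gives about 1 in 20 for independent, normally distributed values. Some groups here share values, as with Nes and its ratio to Vim, so 9 of 61 cannot be read as an excess. Among the 6 genes, Nes stood at 28.0 CPM in endfeet 1 and at 138 to 176 CPM in the other 5 libraries. The log2 ratio of Nes to Vim was likewise -4.72 in endfeet 1 and -2.45 to -1.67 in the others. Without endfeet 1 the log2 fold change of Nes was 6.95, against 6.75 with it. Plec stood at 291 CPM in endfeet 3 and at 190 to 227 CPM in the others. The transcript Plec-222 was at 17.6% of the Plec-201 count in endfeet 5 and at 5.77 to 9.72% in the others.

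Among related genes, Des was at 71.6 CPM in endfeet 2 (1.69 to 27.1 CPM in the others), and Utrn was at 1595 CPM in the same library (852 to 1128 CPM). Pkp4 was at 948 CPM in endfeet 1 (381 to 537 CPM) and Tln1 at 433 CPM in that library (89.5 to 161 CPM). Ppl was at 65.8 CPM in endfeet 6 (9.19 to 27.0 CPM), the shallowest library.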

How the results depend on the processing

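Vim, Nes, Synm, Plec and Dst passed the threshold under every alternative fit and with each library left out, with log2 fold changes of 2.24 to 2.54, 6.54 to 6.95, 4.40 to 4.73, 4.94 to 5.17 and 4.36 to 4.62 over the left-out libraries. Gfap passed only with limma voom (-0.61, adjusted p = 0.022) and otherwise kept its sign, at -0.78 to -0.33 with a library left out. Against endfeet 4 to 6 alone (the file number series of the whole astrocyte libraries), where 3 against 3 libraries cannot give an exact permutation p under 0.1, the log2 ratios were 3.22 (Vim/Gfap), 7.83 (Nes/Gfap), 5.18 (Synm/Gfap), 5.96 (Plec/Gfap), 5.37 (Dst/Gfap) and 4.61 (Nes/Vim). Plec/Dst passed with summed transcripts (0.67). Over all genes, 1874 to 3380 were higher and 1171 to 2642 lower with a library left out, fewest without a whole astrocyte library, and 4485 were lower with limma voom. Of the related genes, 10 to 16 were higher and 2 to 5 lower with a library left out, while 5 were lower with no filter and 6 with limma voom. With the replicate number as a block, 2501 genes were higher and 1958 lower, and Gfap (-0.51), Vim (2.53), Nes (6.22), Synm (4.72), Plec (5.08) and Dst (4.54) kept their side of the threshold, while Des (4.30, adjusted p = 0.056) and Lmna (1.35, adjusted p = 0.15) lost their calls. The numbers 4 to 6 occur only in endfeet libraries, so this fit takes its differences from endfeet 1 to 3 and whole astrocyte 1 to 3. These lie in different file number series, so group and series cannot be told apart in it. The labels do not state that same-numbered libraries are paired. Correlations of their deviations were -0.0339, 0.00847 and 0.0714, against -0.0862 to 0.0755 for libraries of different numbers. With so few libraries these values cannot show whether the numbers pair samples. Depth limits Nes in whole astrocyte libraries, which rests on 42 to 71 counts, and endfeet 6, with 2319495 counts.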
